A study of Mus musculus with 35 samples.

Results

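The age effect examined here was that between wild-type (WT) mice of 15 and 11 weeks, measured in lumbar motoneurons cut from spinal cord sections by laser microdissection. Arrays labelled as WT at week 15 (n = 7) were compared with arrays labelled as WT at week 11 (n = 6), so 13 of the 35 arrays of the series gave the means compared. All probe sets that name 1 gene were considered, which were 34958 of 45101 probe sets on the Affymetrix mouse genome array. All WT mice were female C57BL/6J littermates of the SOD1 G93A line, carried no transgene, and no pump or injection is given for them. The 2 ages were collected as separate cohorts, the week 11 mice in a first cohort and the week 15 mice with a second one, so that age and cohort cannot be told apart. SOD1 G93A mice (strain B6.Cg-Tg(SOD1-G93A)1Gur/J, which carries many copies of the mutant human SOD1 gene) gave the same interval in other animals, at 11 weeks without treatment (n = 8) and at 15 weeks after vehicle given by an implanted pump from week 11 (n = 7). SOD1 G93A mice treated with G-CSF (granulocyte-colony stimulating factor) and taken at 15 weeks (n = 7) were not compared here. The filter and the fit of the test nevertheless used all 35 arrays, theirs included. Each array held amplified RNA of a pool of cells from 1 mouse. In such pools fewer cells of a type and less RNA per cell cannot be told apart.

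Lumbar motoneurons are large cholinergic cells of the ventral horn that drive the leg muscles. They receive glutamatergic excitation and glycinergic and GABAergic inhibition from local interneurons, whose terminals contact the cell body. They also depend on mitochondrial ATP, on motor proteins that carry cargo along long axons, and on neighbouring oligodendrocytes and astrocytes.

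Markers of neurons and of glia were both present on the WT arrays. All 13 general neuron markers and 15 of 16 motoneuron markers lay above the array median on all 13 arrays, with Nefl at a mean log2 level of 13.53, Ret at 10.21 and Chodl at 11.16. Chat, the defining cholinergic enzyme, stayed at a mean of 3.09, below the median of all values (3.29), so that its probe set did not show the cholinergic identity. Of the 18 oligodendrocyte and myelin markers 16 were above the array median on all 13 arrays, as were 14 of 16 astrocyte and 8 of 19 microglia markers, whereas none of the 4 red blood cell genes on the array passed the filter.

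Week 11 mouse 6 stood apart from all other WT mice. On the first principal component, which held 23.5% of the variance, it lay at 146.9 while the other 12 mice lay between -29.5 and 15.2. On the second component (20.5%) the other 5 week 11 mice lay between 45.2 and 60.7, the week 15 mice between -47.4 and -14.2, and mouse 6 at -35.1, among the week 15 mice. Its hybridisation spike BioB was at 9.45 against 6.40 to 7.12 in the other week 11 mice, and its Gapdh 3′ minus 5′ difference was 7.38 against 5.01 to 6.02. The median standard deviation across transcripts in the week 11 group was 0.39 with mouse 6 and 0.29 without it, against 0.33 at week 15. Results are given with mouse 6, and the counts of a gene list also without it where they changed by over 1.5 times.

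The control probe sets for 18S ribosomal RNA moved with week. Their mean ranged from 8.88 to 10.39 at week 11 (median 9.55) and from 11.59 to 12.39 at week 15 (median 12.16). No week 11 mouse reached the lowest week 15 mouse, and the difference was 2.51 on the log2 scale (exact permutation test, two-sided, p = 0.000583, n = 6 and 7, the smallest value that 1716 assignments allow; 0.0028 after adjustment over 24 control measures). Without mouse 6 it was 2.40. The SOD1 mice showed a rise as well, with some overlap of the groups, from a mean of 10.40 ± 0.69 (SD, n = 8) at week 11 to 11.58 ± 0.64 (SD, n = 7) at week 15. The 3′ minus 5′ difference of the Actb control was also higher at week 15, by 0.63 (exact permutation test, two-sided, p = 0.000583, n = 6 and 7), again without overlap of the groups. That of Gapdh differed by 0.07 with mouse 6 (p = 0.868 in the same exact test) and by 0.40 without it. BioB differed by 0.48 with mouse 6 and by 0.92 without it, and the B1 repeat control by 0.58 and 0.80.

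**Figure D1:**
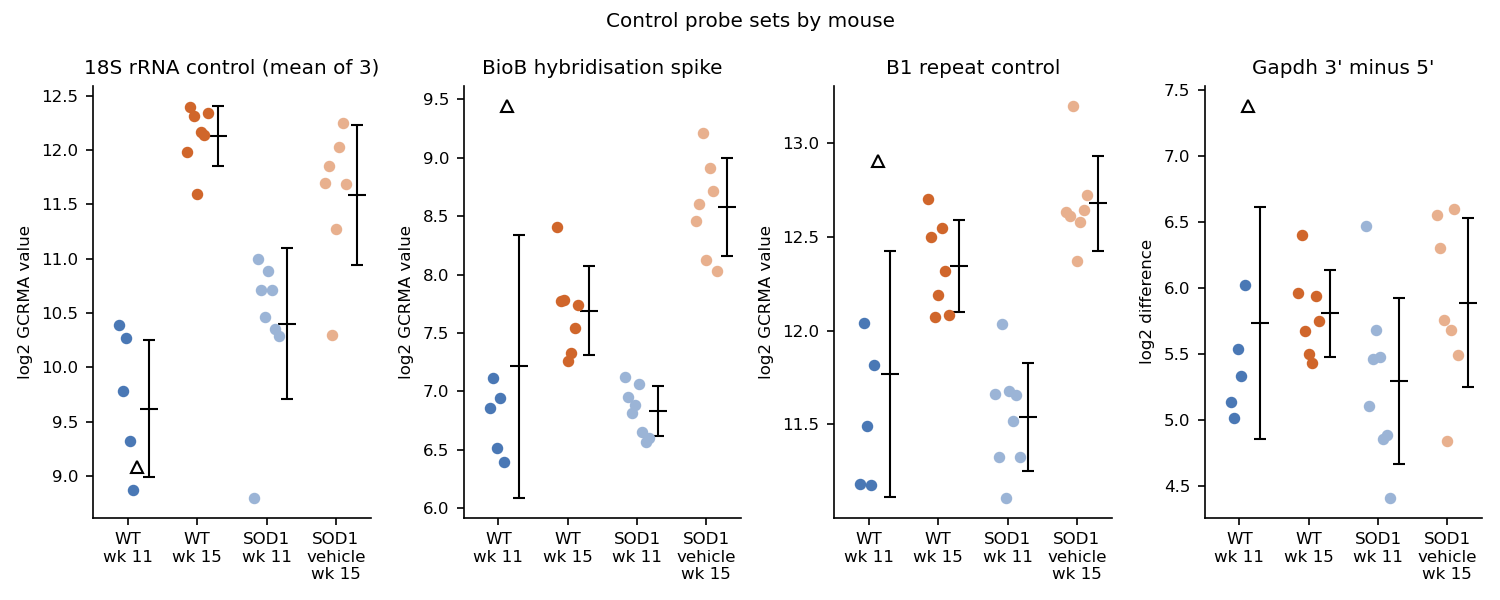
Log2 GCRMA values of control probe sets in each mouse (points) with the group mean and SD (bars), for WT and SOD1 mice at both weeks; the open triangle is WT week 11 mouse 6. The 18S controls of all 7 WT week 15 mice lie between 11.59 and 12.39, above all 6 WT week 11 mice, and mouse 6 is the highest for BioB and for Gapdh 3′ minus 5′.

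Between the weeks 1743 of 31352 filtered transcripts were called (5.56%), 1033 higher at week 15 (3.29%) and 710 lower (2.26%), with limma's moderated test fitted over all 35 arrays. A call required an unadjusted p below 0.05, a Benjamini-Hochberg adjusted p below 0.1 and a change of at least 1.5-fold. Of these, 1501 named 1 gene (865 higher, 3.38%, and 636 lower, 2.49%, of 25589), from 1335 genes. The rises were larger than the falls: 605 transcripts rose and 248 fell at least 2-fold, and 112 rose but 0 fell at least 4-fold. The median change was 1.13 among the called rises and -0.89 among the called falls, and -0.01 among all transcripts. Values of the 2 groups did not overlap for 389 of the 1033 rises and 241 of the 710 falls, against 2.99% of all transcripts. Without mouse 6 there were 2100 calls (1034 higher, 1066 lower), which held 847 of the rises and 584 of the falls.

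Fewer calls were made with the 18S mean as a covariate, whose slope comes from mice within groups: 387 transcripts (169 higher, 218 lower), which held 91 of the 1033 rises and 72 of the 710 falls. The slope itself passed an adjusted p below 0.1 for 385 of 31352 transcripts. The differences shrank less than the counts. Among the rises the median difference went from 1.13 to 0.72 and among the falls from -0.89 to -0.87, and 528 of 941 rises and 424 of 638 falls that were not called with the covariate still differed at least 1.5-fold in the same direction, while 119 and 27 turned their sign. Since the 18S ranges of the 2 weeks do not overlap, the covariate fit compares mice at 18S levels that the other group did not have, and a call lost in it does not show that the difference went with 18S. The named genes were the 15 largest called rises, the 15 largest called falls and up to 6 called members of each gene list. They gave 137 probe sets of 136 genes (Iars at 2 probe sets), most of which are described below. Of these, 15 kept their call with the covariate (Nedd4, Hnrnpab, Iars, Prelid1, Slc18a3, Cacna1a, Tubb2a, Tubb4b, Rps9, Rpl8, Rps10, Pkm, Ldha, Srebf1 and Eif3k), and of the other 122, 73 still differed at least 1.5-fold in the same direction, 35 by less, and 14 turned their sign.

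The largest rise was in Nedd4, a HECT-type ubiquitin ligase of neurites and synapses. Its log2 value ran from 4.82 to 7.73 (median 6.39) at week 11 and from 9.52 to 10.48 (median 10.10) at week 15. All week 15 mice lay well above all week 11 mice, and the difference was 3.88 ± 0.38 (SE; limma adjusted p = 4.35e-08), or 14.7-fold. Its 2 other filtered probe sets were not called (-0.22 and 0.76). Hnrnpab, an RNA-binding protein of the hnRNP family, was the tightest of the large rises. Its values ran from 4.84 to 5.71 (median 5.23) and then from 8.38 to 9.18 (median 8.85), a difference of 3.58 ± 0.21 (adjusted p = 2.37e-13). Its 5 other probe sets lay between -0.66 and -0.30, and none was called.

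Receptor, transport and lipid genes were also among the 15 largest rises. Ntrk3, the neurotrophin-3 receptor TrkC, ran from 1.92 to 4.44 (median 2.61) at week 11 and from 4.62 to 7.76 (median 6.62) at week 15. Slc7a14, a transporter of the cationic amino acid family, ran from 2.39 to 5.04 (median 3.98) and from 6.86 to 8.31 (median 7.71). Abcd2, a peroxisomal transporter of very long chain fatty acids, ran from 1.80 to 3.41 (median 2.83) and from 5.39 to 6.97 (median 6.01). In these 3 genes every week 15 mouse was above every week 11 mouse, with differences of 3.60 ± 0.70, 3.74 ± 0.51 and 3.40 ± 0.50 (SE). Etnk1, the ethanolamine kinase of phospholipid synthesis, rose by 3.09, and Pggt1b, a subunit of the geranylgeranyl transferase that lipidates small GTPases, by 3.19.

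The other 8 rises included RNA-binding and transcription regulators. Ddx6, an RNA helicase of processing bodies, rose by 3.31, the long non-coding RNA Norad, which binds Pumilio proteins, by 3.10, and the transcription factors Nfia and Hif1a by 3.16 and 2.93. Gpbp1 (a promoter-binding protein), Ecpas (a proteasome adaptor), Reep3 (of the endoplasmic reticulum) and Apc (the scaffold that drives degradation of β-catenin) rose by 3.09, 2.92, 2.90 and 2.88. The groups did not overlap in 14 of the 15 genes, which were picked for the size of their rise, against 2.99% of all transcripts. Apc was the exception, with values from 2.03 to 4.25 (median 2.82) and from 4.01 to 7.01 (median 5.92). All 15 kept their call without mouse 6, and 2 (Nedd4 and Hnrnpab) kept it with the 18S covariate. In that fit Nfia (2.97), Gpbp1 (2.83), Hif1a (3.26) and Pggt1b (2.71) stayed about as large without a call, while Ddx6 (0.18) and Reep3 (0.30) were much smaller. Adjusted p-values of the 15 ran from 2.37e-13 to 0.00958.

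Most of the large rises were not shared by the other probe sets of the gene. All 15 genes had other filtered probe sets, 43 in total, of which 5 were called higher and 0 lower. In 13 of the 15 the risen probe set was not the brightest of the gene. Hif1a rose by 2.93 at the named probe set, where week 11 values ran from 1.85 to 4.57 (median 2.33), while its brightest probe set, at a mean level of 8.96, differed by 0.05. Norad differed by -0.05 at a probe set with a mean level of 11.37, and Slc7a14 by 0.17 at one of 11.18. Across the array the 505 called rises that were not at the brightest probe set had a median of 1.32, whereas the brightest probe sets of the same genes had a median of 0.12, with 60 called higher and 1 lower. The 231 falls outside the brightest probe sets had a median of -0.94, against -0.40 at the brightest ones, with 48 called lower and 7 higher. Rises were called at 4.46% of the 11332 other probe sets and 2.53% of the 14257 brightest ones, falls at 2.04% and 2.84%. Most of these large rises were thus not seen at the brightest probe set of the gene.

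Among the falls Gad1, the enzyme that makes GABA, changed most. Its log2 value ran from 4.29 to 6.74 (median 5.42) at week 11 and from 2.62 to 4.49 (median 3.32) at week 15. The groups overlapped through mouse 6 (4.29), the lowest of the week 11 mice, and not otherwise. It fell by 2.00 ± 0.54 (adjusted p = 0.0274), and fell by 2.25 without mouse 6. Vip, a neuropeptide, ran from 2.77 to 5.57 (median 4.42) and then from 2.15 to 3.37 (median 2.30), near the detection floor in the older mice. Ctss, the lysosomal protease cathepsin S of microglia and macrophages, ran from 7.33 to 8.54 (median 7.73) and from 4.57 to 6.80 (median 6.32) without overlap and fell by 1.78 ± 0.37 (adjusted p = 0.00344).

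The other 12 falls ran from -1.95 to -1.73. Snhg1 (a host transcript of small nucleolar RNAs) fell by 1.95, Papola (a poly(A) polymerase) by 1.90 and Iars (isoleucyl-tRNA synthetase) by 1.84. Rad1, part of the checkpoint clamp, Chek1, a checkpoint kinase, and Ankrd11, a chromatin cofactor, fell by 1.79, 1.75 and 1.75. Prelid1 (mitochondrial phospholipid transfer), Ciao2a (iron-sulphur cluster assembly) and Mzt1 (a γ-tubulin complex subunit) fell by 1.84, 1.75 and 1.73. Gin1, the secreted matrix protein Egfl6 and the protease Prss23 fell by 1.81, 1.81 and 1.73. Groups did not overlap in 7 of the 15 genes, which were picked for the size of their fall, against 2.99% of all transcripts. They did not overlap in 10 without mouse 6, which lay inside the week 15 range in 3. The 15 kept their call without it, and 2 (Iars and Prelid1) with the 18S covariate. In that fit Gad1 (-1.97), Egfl6 (-2.10), Rad1 (-2.09) and Chek1 (-1.81) stayed about as large without a call, while Snhg1 (0.06) and Vip (-0.39) were much smaller. Chek1 was the least certain (adjusted p = 0.0853). Other probe sets were fewer here, 27 for 10 genes, with 4 called lower and 0 higher. Iars fell also at its brightest probe set (-0.92, adjusted p = 0.00111), whereas Papola was at 1.31 (not called) and Ankrd11 at 0.34 (not called) there.

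**Figure D2:**
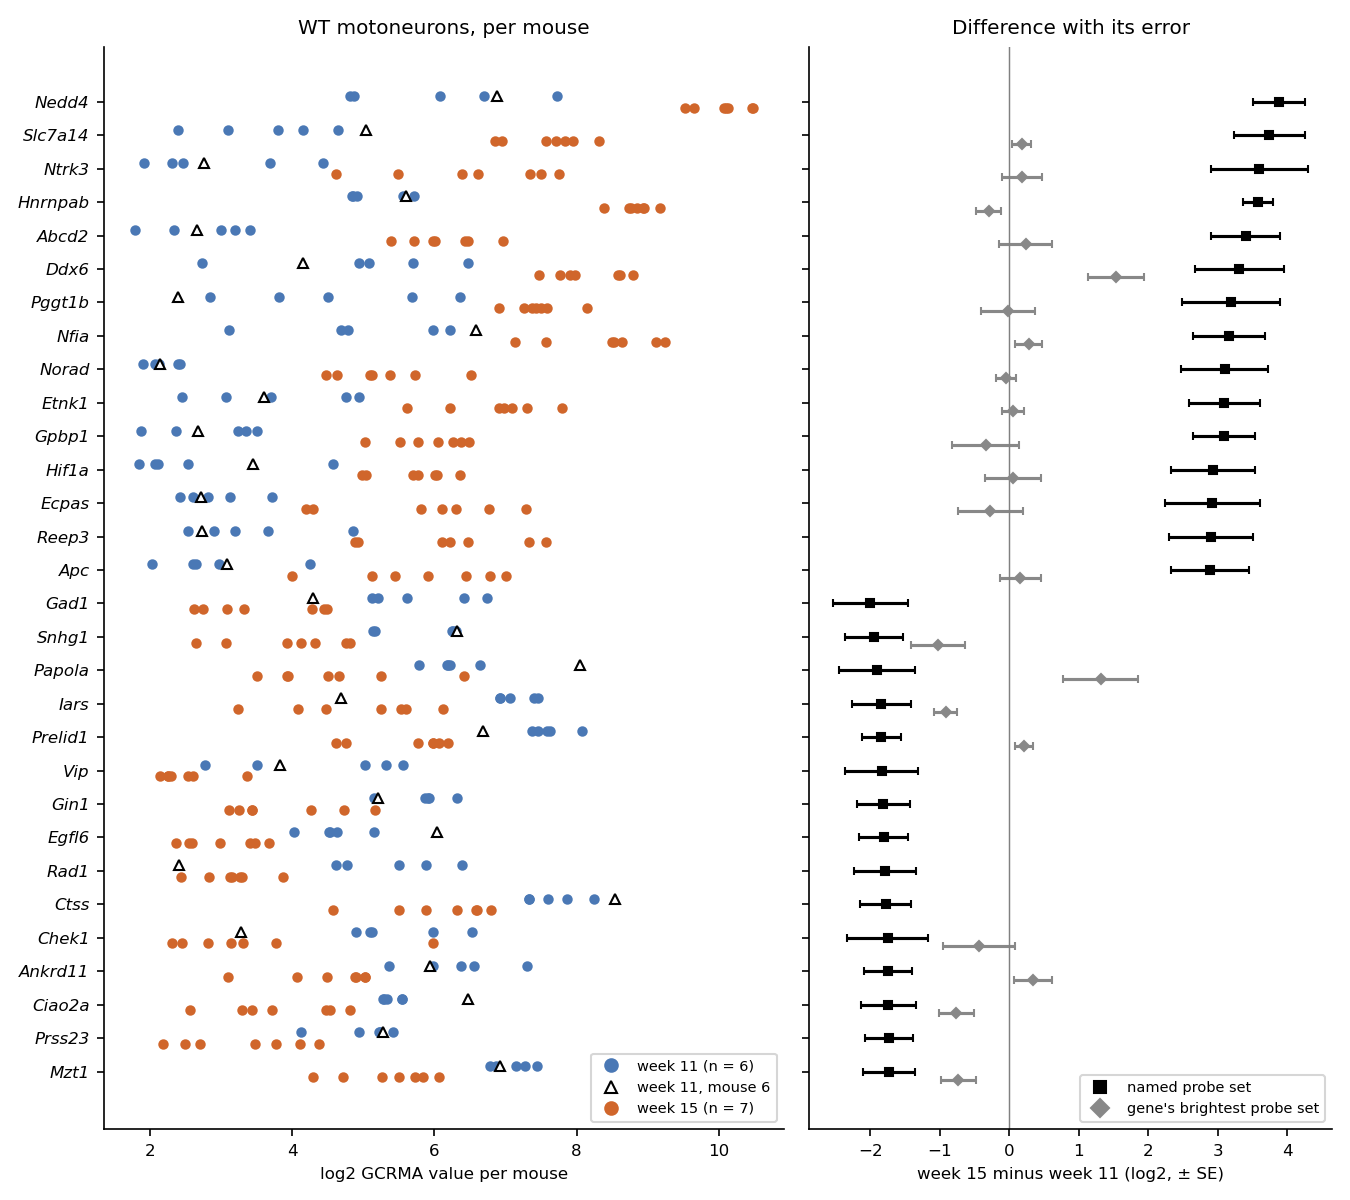
The 15 genes with the largest called rise (upper rows) and the 15 with the largest called fall (lower rows). Left, log2 GCRMA value of each WT mouse at week 11 (blue, n = 6, mouse 6 as an open triangle) and week 15 (orange, n = 7); right, the difference with its standard error at the named probe set (squares) and at the gene's brightest probe set where that is another one (diamonds). Squares of the rises lie between 2.88 and 3.88, most of their diamonds near 0.

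For gene groups 1 probe set per gene was used, the brightest filtered one, which gave 14257 genes. Of these 765 were called (5.37%), 360 higher (2.53%) and 405 lower (2.84%), the median difference was -0.06, and 57.4% of genes lay below 0. Without mouse 6 the counts were 360 (2.53%) and 628 (4.4%) and the median -0.07. Groups of genes were read against these figures, and the medians of the lists described as higher or lower kept their sign after quantile normalization and with the 75th centile set equal, which moved the median of all genes to -0.06 and -0.08. With the 18S covariate 65 genes were called higher (0.456%) and 132 lower (0.926%).

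Some genes of mitochondrial protein synthesis and respiration were lower at week 15. Of 69 mitochondrial ribosomal proteins 56 lay below 0, 9 were called lower and 0 higher, and the median difference was -0.35, against -0.06 for all genes. Mrps26, of the small subunit, ran from 9.13 to 9.79 (median 9.49) at week 11 and from 8.15 to 9.08 (median 8.56) at week 15, with no overlap of the groups. It fell by 0.91 ± 0.18 (adjusted p = 0.00261). Mrps16, Mrps18a, Mrps18b, Mrps23 and Mrpl34 fell by 0.96, 0.89, 0.83, 0.82 and 0.80. Without mouse 6, 14 of the 69 were called lower. With the 18S covariate 1 was called lower and 2 higher.

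Of 54 respiratory chain subunits 42 lay below 0, 6 were called lower and 0 higher, with a median of -0.34. They belonged to complex I (Ndufa7, -0.84; Ndufb9, -0.93), complex II (Sdhd, -1.28), complex III (Uqcrb, -0.72; Uqcrh, -0.94) and complex IV (Cox8a, -0.66). Uqcrh ran from 8.45 to 9.29 (median 8.75) and then from 7.41 to 8.31 (median 7.78), and the groups did not overlap. Sdhd depended on mouse 6, which was at 5.72 while the other week 11 mice were at 9.35 to 9.88; without it Sdhd fell by 1.92. At an unadjusted p below 0.05 in limma, 26 of the 54 were lower and 7 higher, beside 1540 lower and 989 higher of all 14257 genes. The count of calls without mouse 6 was 14 lower of 54, and with the 18S covariate 2.

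Glycolysis and the tricarboxylic acid cycle followed the same direction, with 24 of 30 enzymes below 0, 6 called lower, 0 higher and a median of -0.26. Ldha, the muscle-type subunit of lactate dehydrogenase, ran from 7.81 to 8.90 (median 8.10) at week 11 and from 6.62 to 7.56 (median 6.95) at week 15. All week 15 mice were below all week 11 mice, and the level fell by 1.16 ± 0.30 (adjusted p = 0.0215). Pkm, Dlst, Mdh1, Tpi1 and Ldhb fell by 0.77, 0.77, 0.67, 0.66 and 0.65. With the 18S covariate 4 of the 30 were called lower, Pkm and Ldha among them. Proteasome subunits had a median of -0.30, but only 1 of 33 was called lower, the immunoproteasome subunit Psmb10 (-0.83), and 0 higher. Without mouse 6 the proteasome counts were 4 lower and 1 higher, with a median of -0.41.

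The nuclear genes of respiration are known targets of the transcription factor NRF1, so their promoters were searched for the core NRF1 motif on both strands in the 250 bases before each RefSeq start site (GRCm38.p6). The motif was present for 8.33% of the 11445 filtered genes that matched the promoter table, for 8 of 61 matched mitochondrial ribosomal genes (13.1%) and for 7 of 44 matched respiratory chain genes (15.9%). Of the 13 matched genes that fell in these groups, 1 held it, Sdhd, 79 bases before its start site (chr9:50603869-50603968, minus strand). The stretch is shown because it is the promoter match among the genes that fell, with the motif in capitals:
Sdhd: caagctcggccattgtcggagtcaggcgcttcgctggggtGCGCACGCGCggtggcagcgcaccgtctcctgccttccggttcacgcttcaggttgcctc

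Cytosolic translation genes moved in both directions. Of 38 cytosolic ribosomal proteins 6 were called lower and 2 higher, with a median of -0.21 (2 lower and 2 higher after quantile normalization). Rps9 ran from 5.87 to 7.70 (median 7.53) and then from 5.29 to 6.11 (median 5.69) and fell by 1.57 ± 0.29 (adjusted p = 0.00149). Mouse 6, at 5.87, was the only week 11 mouse inside the week 15 range. Rpl8 and Rpl4 fell by 0.76 and 0.64. Rps19 (-0.74) and Rpl19 (-0.64) lost their call without mouse 6, where they were at -0.74 and -0.58. Rps10 rose by 0.67, and the list's counts without mouse 6 were 4 lower and 3 higher. Among 41 initiation and elongation factors Eif6 (-0.91) and Eif3k (-0.83) fell while Pabpc1 (0.90) and Eif3c (0.77) rose, and without mouse 6 the counts were 4 lower and 3 higher. Of 19 aminoacyl-tRNA synthetases Eprs, Sars and Wars rose by 0.94, 1.10 and 0.93, and Iars fell, with 4 higher and 2 lower without mouse 6.

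Some markers of inhibitory interneurons were lower. Of 9 filtered markers 7 lay below 0, 3 were called lower, 0 higher, and the median was -0.44. The mean level over all 10 markers on the array ran from 4.98 to 5.51 at week 11 and from 4.58 to 4.86 at week 15, so that all week 15 mice were below all week 11 mice, mouse 6 included (5.09). Beside Gad1 the calls were Slc6a5, the glycine transporter of glycinergic terminals, and the calcium-binding protein Pvalb. Slc6a5 ran from 7.33 to 9.84 (median 8.92) at week 11 and from 7.47 to 8.25 (median 7.58) at week 15 and fell by 1.05 ± 0.33 (adjusted p = 0.0642). Pvalb ran from 8.23 to 9.81 (median 8.71) and from 6.89 to 7.90 (median 7.66) and fell by 1.24 ± 0.28 (adjusted p = 0.00829) without overlap. Slc32a1, the vesicular GABA and glycine transporter, was at 8.68 and 8.16 and was not called. None of the 5 filtered excitatory interneuron markers was called (median -0.17), but 4 of them lay below 0. The lowest was Slc17a6, with means of 9.97 and 9.02 (-0.95). In SOD1 mice 2 of these 5 were called lower (median -0.45), beside 21.7% of all genes. With the 18S covariate 0 of the 9 inhibitory markers were called, with Gad1 at -1.97, Pvalb at -0.97 and Slc6a5 at -0.68, and the part of such cells in the falls was not tested.

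Neuropeptides showed the same direction, with 3 of 20 called lower, 0 higher and a median of -0.26. Scg2 (secretogranin II) ran from 8.38 to 9.50 (median 9.18) and then from 7.53 to 8.18 (median 7.77) without overlap and fell by 1.27 ± 0.32 (adjusted p = 0.0184). Cartpt, the precursor of CART peptides, fell by 1.43 ± 0.37, and Vip is given above.

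Calls among receptor and channel genes were few. Glra1, the α1 subunit of the glycine receptor that receives the inhibitory input, ran from 7.78 to 8.86 (median 8.72) at week 11 and from 9.71 to 10.48 (median 10.04) at week 15. All week 15 mice lay above all week 11 mice, and the rise was 1.48 ± 0.25 (adjusted p = 0.00066). It was the only call among 16 GABA and glycine receptor genes, whose median was 0.04.

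Of 25 sodium, calcium and HCN channel genes 3 were called higher and 0 lower (median 0.22), all of them calcium channel subunits. Cacna1a, the pore of P/Q-type channels that trigger transmitter release, ran from 4.45 to 7.16 (median 4.82) and then from 6.57 to 7.65 (median 7.08). Mouse 6 (7.16) was the highest week 11 mouse, and the rise was 1.72 ± 0.37 (adjusted p = 0.00464). Cacna1h, a T-type pore, and the auxiliary subunit Cacna2d2 rose by 1.06 and 0.95, each without overlap. Among 34 potassium channel genes (median 0.09) 1 was called (2.94%, beside 2.53% of all genes), Kcnma1, the pore of the large-conductance calcium-activated channel, which ran from 5.69 to 7.15 (median 6.34) and from 7.21 to 8.91 (median 8.01) and rose by 1.65 ± 0.41. Without mouse 6 the potassium channel counts were 2 higher and 2 lower. With the 18S covariate Cacna1a was called (2.81), while Glra1 was at 0.16, Kcnma1 at 0.46, Cacna1h at 0.34 and Cacna2d2 at -0.01.

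Of 28 glutamate receptor and scaffold genes 4 were called higher and 0 lower (median 0.12): the NMDA receptor subunits Grin2a (0.76) and Grin2b (0.72), the kainate receptor subunit Grik4 (0.71) and the postsynaptic scaffold Shank3 (0.79). Grin2a was low on all arrays and ran from 2.57 to 2.89 (median 2.59) at week 11 and from 2.89 to 4.25 (median 3.37) at week 15. Of 31 synaptic vesicle and SNARE genes 4 were called higher and 0 lower (median 0.03). The priming factor Unc13a and the SNARE adaptor Napb rose by 0.64 and 0.73, while the synaptotagmins Syt4 (0.77) and Syt11 (0.63) lost their call without mouse 6, where they were at 0.65 and 0.45. Shares of 14.3% and 12.9% called higher stood beside 2.53% of all genes. Without mouse 6 the median of the vesicle and SNARE genes was -0.13. With the 18S covariate 0 genes of either list were called higher, and 1 vesicle or SNARE gene was called lower.

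**Figure D3:**
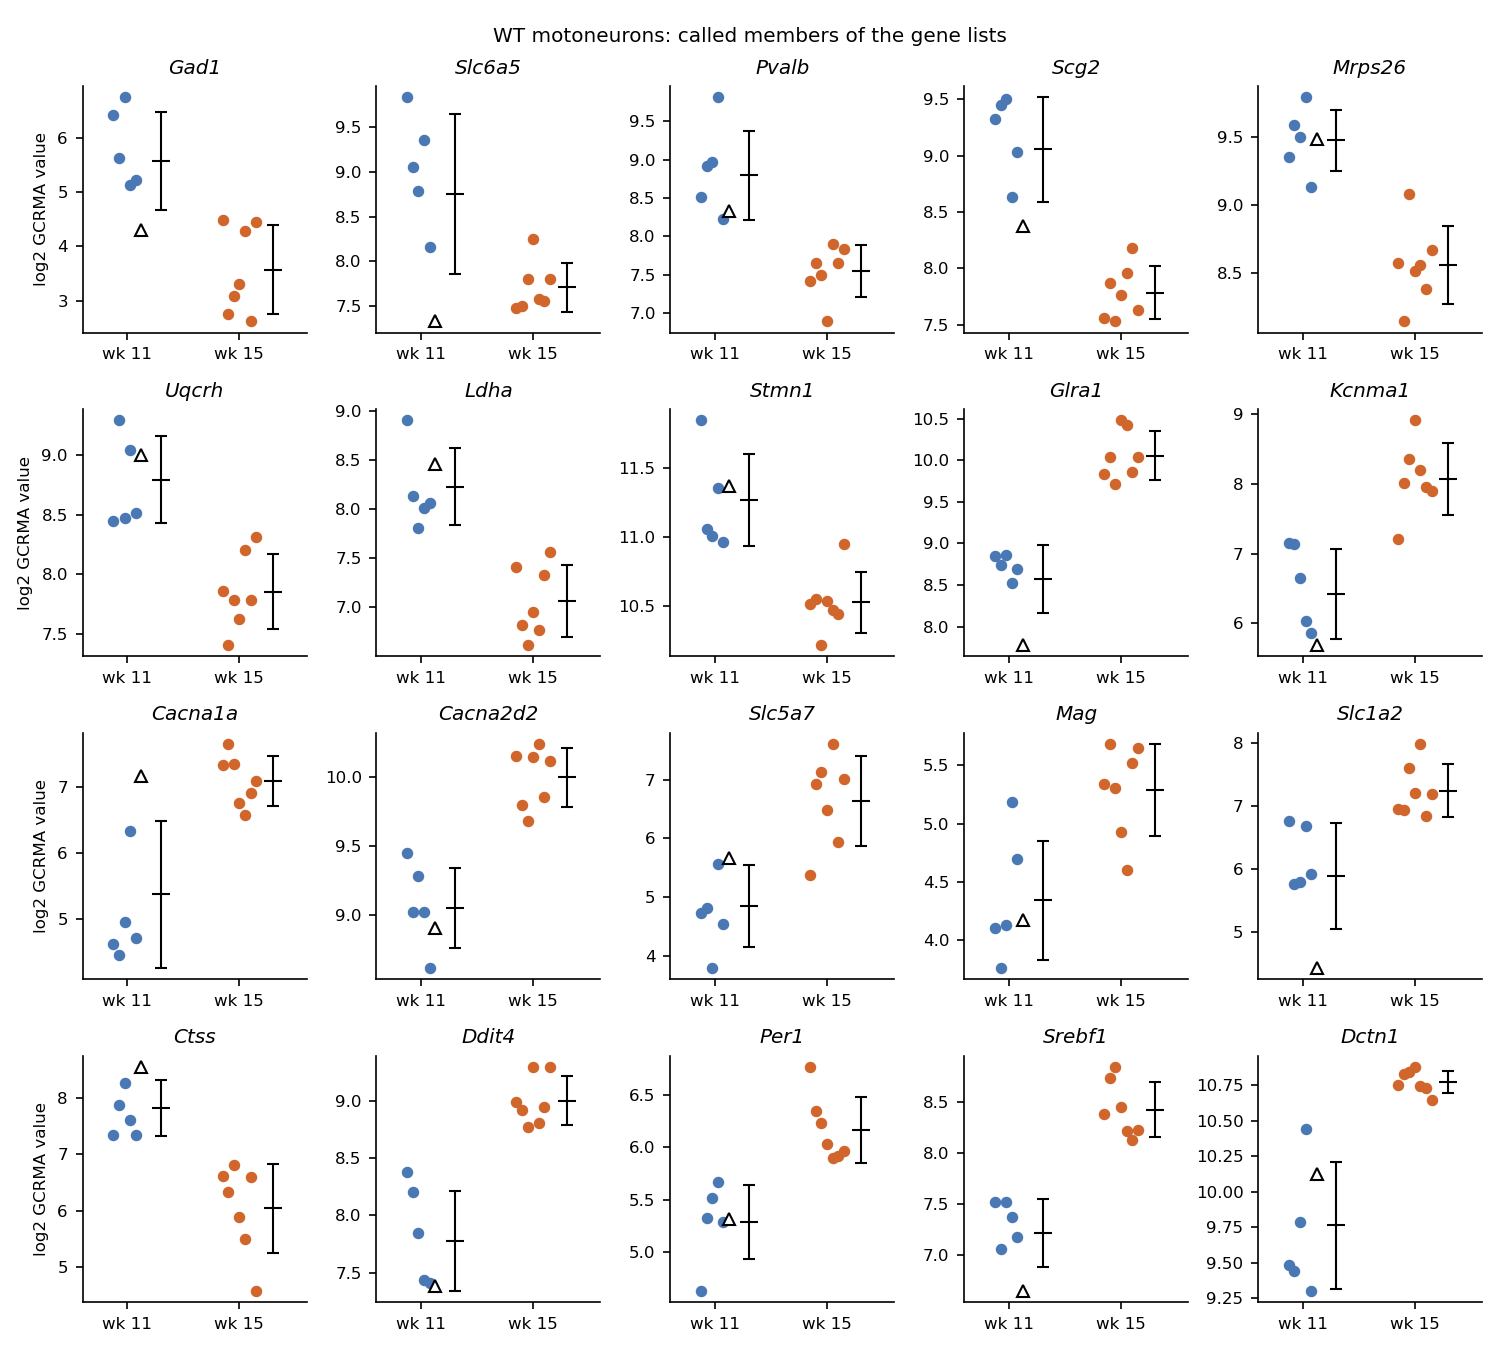
Log2 GCRMA values of 20 called genes from the lists in each WT mouse at week 11 (blue, n = 6, mouse 6 as an open triangle) and week 15 (orange, n = 7), with the group mean and SD beside the points; each panel has its own scale. Glra1 lies between 7.78 and 8.86 at week 11 and between 9.71 and 10.48 at week 15, and Pvalb between 8.23 and 9.81 and between 6.89 and 7.90.

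Of 16 genes that mark motoneurons 1 was called higher and 1 lower, and the median was -0.01, or -0.19 without mouse 6. Slc5a7, the choline transporter that supplies acetylcholine synthesis, ran from 3.80 to 5.67 (median 4.78) and then from 5.38 to 7.61 (median 6.92), a rise of 1.79 ± 0.43 (adjusted p = 0.0123). Slc18a3, which loads acetylcholine into vesicles, ran from 3.87 to 6.27 (median 4.96) and from 3.67 to 4.41 (median 4.15) and fell by 0.88 ± 0.28 (adjusted p = 0.0674). The groups overlapped for both genes. Among general neuron markers Uchl1, a neuronal deubiquitinase, fell by 0.68 and was the only call of 13 (2 lower without mouse 6).

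Cytoskeletal and transport genes were called in both directions. Of 25 kinesin, dynein and dynactin genes 3 were called higher and 2 lower. Dctn1, the large dynactin subunit p150Glued, ran from 9.30 to 10.44 (median 9.63) at week 11 and from 10.65 to 10.88 (median 10.75) at week 15. The week 15 mice were close together and all above the week 11 mice, a rise of 1.01 ± 0.16 (adjusted p = 0.000385). Dctn2, of the same complex, and the kinesin adaptor Kifap3 fell by 0.60 and 0.60, and after quantile normalization 0 of the 25 were called lower. The other filtered probe set of Kifap3 was called in the opposite direction (0.82). The kinesin heavy chain Kif5b rose by 1.16 at its brightest probe set, and its 5 others ran from -0.45 to 2.56 with 2 called higher. Dynll2 (0.74) lost its call without mouse 6, where it was at 0.52. Of 27 neurofilament, tubulin and microtubule genes Tubb2a rose by 1.25 while Tubb4b and the microtubule destabiliser Stmn1 fell by 0.95 and 0.74, and 4 were called lower without mouse 6.

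A few myelin genes were higher in the older mice. Of 18 oligodendrocyte and myelin markers 13 lay above 0, 4 were called higher and 0 lower, and the median was 0.34, or 0.10 without mouse 6. Mag, the myelin-associated glycoprotein, ran from 3.76 to 5.18 (median 4.15) and then from 4.60 to 5.69 (median 5.34), a rise of 0.95 ± 0.23 (adjusted p = 0.0141) with some overlap. Mobp and the transcription factor Myrf rose by 1.12 (0.63 without mouse 6) and 0.70, and Cnp (0.60) lost its call without mouse 6, where it was at 0.54. The mean level of all 18 markers ran from 6.31 to 7.21 at week 11 and from 6.97 to 7.20 at week 15, so the week 15 mice lay inside the week 11 range. In SOD1 mice 2 of the 18 were called higher and 3 lower, with a median of -0.33, beside 5.94% of all genes called higher and 21.7% lower there. Of 16 astrocyte markers 1 was called, the glutamate transporter Slc1a2, which ran from 4.43 to 6.77 (median 5.86) and from 6.84 to 7.99 (median 7.20) and rose by 1.36 ± 0.32. Enpp6 of differentiating oligodendrocytes rose by 0.72, the only call of 7 oligodendrocyte precursor markers, of which 2 lay below 0 (median 0.18). The glucose transporter Slc2a1 of endothelium rose by 0.61, the only call of 13 filtered endothelial and pericyte markers, of which 6 lay below 0 (median 0.01).

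Ctss was the only called member of 17 filtered microglia markers, whose median was -0.20. The mean level of all 19 on the array ran from 3.74 to 4.10 at week 11 and from 3.40 to 3.79 at week 15, close to the array median of 3.22 to 3.42. Defining markers such as P2ry12 and Aif1 were near the floor at both ages (2.65 and 2.43, 2.24 and 2.16), and Csf1r was at 7.71 and 7.06, not called. None of the filtered fibroblast, Schwann cell, lymphocyte or excitatory interneuron markers was called, nor any of 22 Hox genes, 24 immediate early genes or 25 antigen presentation and interferon genes (2 of the last called lower without mouse 6). In limma at an unadjusted p below 0.05, 0 of the fibroblast, 1 of the 4 Schwann cell, 1 of the 3 lymphocyte and 1 of the 5 excitatory interneuron markers passed, as did 1 Hox gene, 1 immediate early gene and 5 antigen presentation genes, beside 989 higher and 1540 lower of all 14257 genes.

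A few stress and protein folding genes rose. Of 27 genes of the integrated stress response 4 were called higher and 0 lower (median 0.13), 2 were called higher with the 75th centile set equal, and without mouse 6 the counts were 5 higher and 1 lower. Ddit4, an inhibitor of mTORC1, ran from 7.38 to 8.38 (median 7.64) at week 11 and from 8.77 to 9.29 (median 8.94) at week 15, with no overlap and a rise of 1.22 ± 0.27 (adjusted p = 0.00622). The transcription factor Atf4 (0.63), the serine synthesis enzyme Phgdh (1.21) and the amino acid transporter Slc7a5 (1.07) rose as well. Of 28 endoplasmic reticulum genes 4 were called higher and 0 lower, with a median of 0.00: the chaperones Hsp90b1 (0.93) and Calr (0.78), the degradation adaptor Sel1l (0.86) and the isomerase Pdia4 (0.84), the last not called without mouse 6 (0.72). Without it the list had 4 calls higher and 1 lower and a median of -0.18. Calr was called at all 3 of its filtered probe sets. Of 40 heat shock genes Hsp90aa1 (0.84) and Dnajb1 (0.61) rose while the mitochondrial co-chaperonin Hspe1 (-0.89) and Bag1 (-0.69) fell, and Dnajb1 lost its call without mouse 6 (0.45). Without it 2 were called higher and 5 lower, and the median went from -0.09 to -0.27.

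Other lists held few calls. Per1, a clock gene and a target of glucocorticoids, ran from 4.63 to 5.66 (median 5.32) and then from 5.89 to 6.76 (median 6.03) without overlap, a rise of 0.88 ± 0.24 (adjusted p = 0.0303), and was the only call of 20 clock genes and of 12 glucocorticoid-responsive genes (2 clock genes higher without mouse 6). Of 24 genes of cholesterol synthesis, uptake and control 2 were called higher and 2 lower (median -0.03). Srebf1, a transcription factor of lipid synthesis, ran from 6.64 to 7.52 (median 7.27) and from 8.12 to 8.84 (median 8.38) without overlap and rose by 1.21 ± 0.19 (adjusted p = 0.000232). Insig1 rose by 0.61. The sterol pathway enzyme Fdps fell by 1.16 and Pmvk by 0.65 (not called at -0.47 without mouse 6). Of 33 chromatin regulators 4 were called higher and 0 lower (median 0.21). Chd4, an ATPase of the NuRD complex, rose by 1.94 ± 0.35 without overlap and Smarca4 by 0.67, while Smarcc1 (1.56) and Dnmt1 (0.82) lost their call without mouse 6, where they were at 1.27 and 0.55 and the counts were 2 higher and 1 lower. Of 46 autophagy and lysosome genes 3 fell (Atp6v1a, -1.02; Galns, -1.02; Ulk2, -0.89), while without mouse 6 the counts were 6 lower and 1 higher and with the 18S covariate 5 lower. Of 39 axon guidance genes 3 were called higher and 0 lower (median 0.01), Efna5 (1.26), Sema6a (0.89) and Plxna1 (0.68). Efna5 lost its call without mouse 6, where it was at 1.03. Of 59 splicing genes the splicing regulator Mbnl1 rose (1.13) while Srsf3 (-0.72) and Snrpn (-0.66, not called at -0.56 without mouse 6) fell (2 higher and 1 lower without mouse 6), and of 23 long non-coding RNAs Rian (0.95) and Gas5 (-0.60) were called, neither of them without mouse 6 (0.70 and -0.51).

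**Figure D4:**
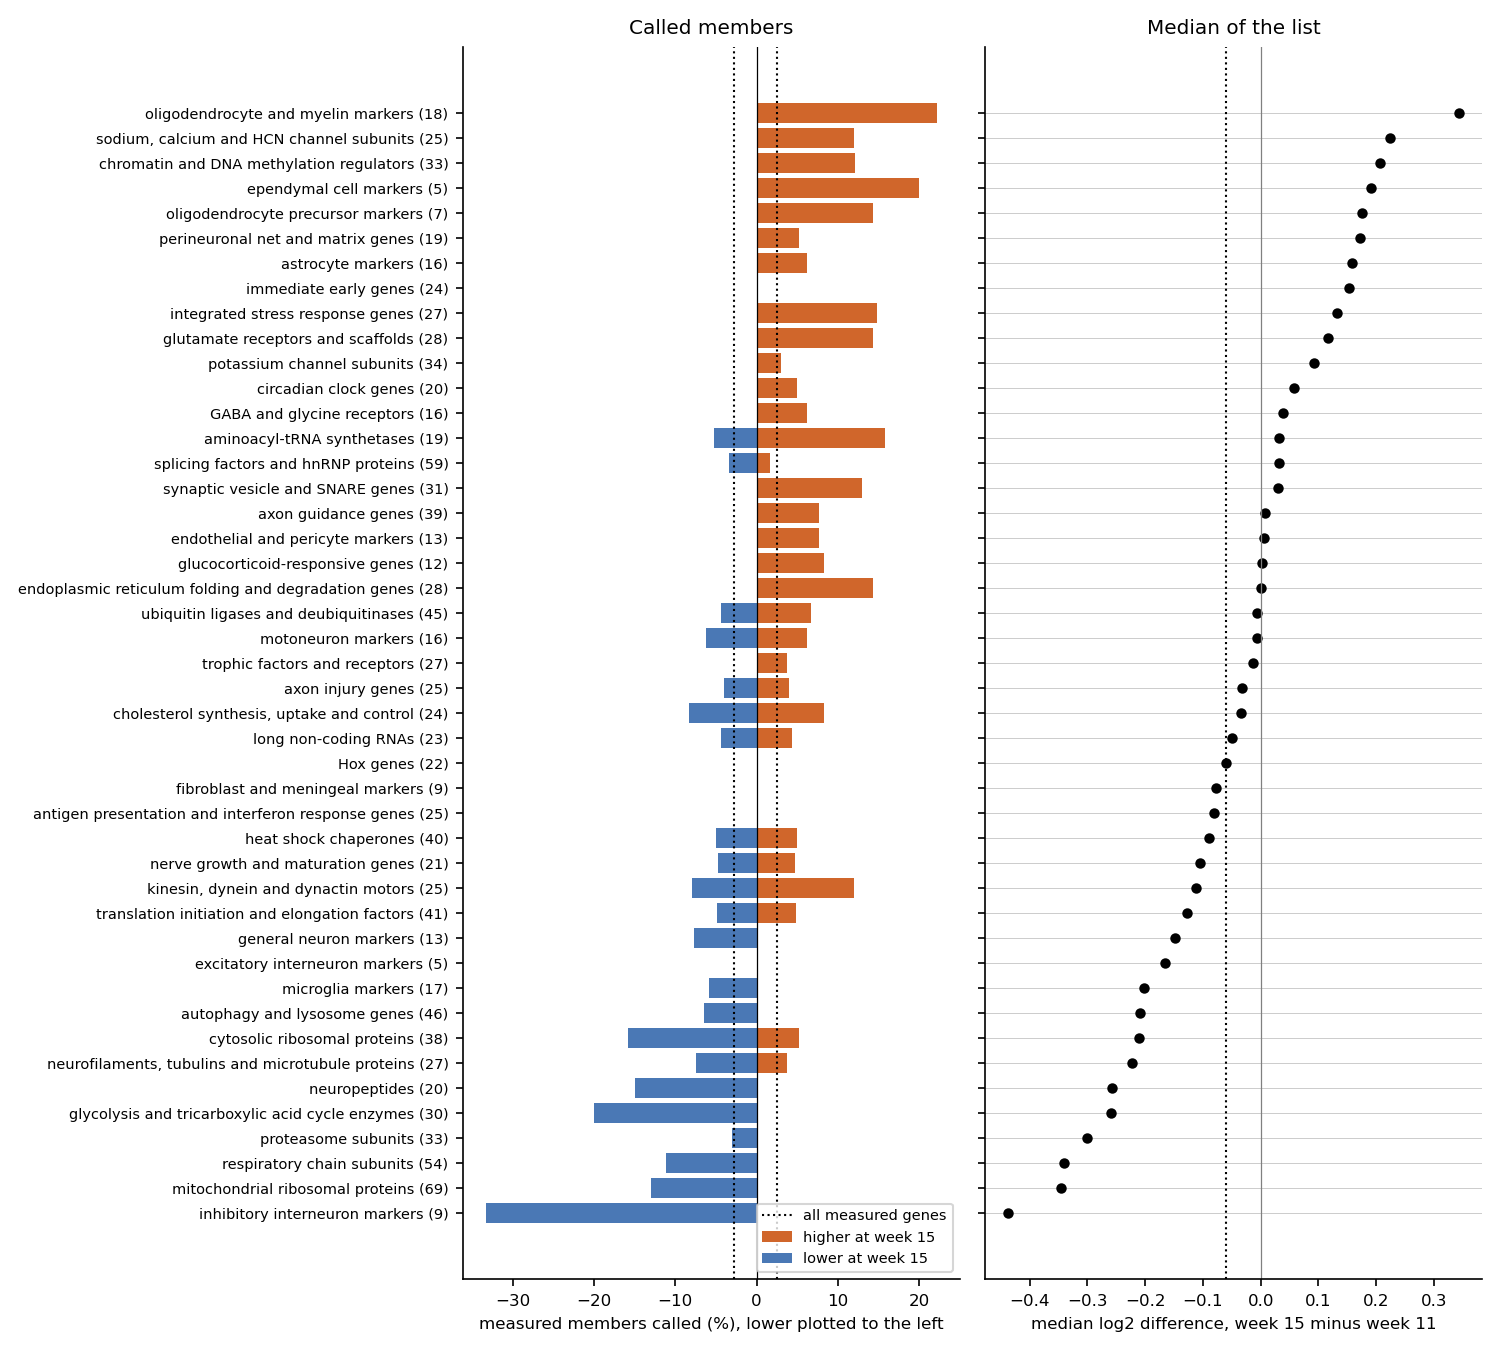
Gene lists with at least 5 filtered members, the number in parentheses, ordered by median. Left, share of members called higher (orange, to the right) or lower (blue, to the left) at week 15, with dotted lines at 2.53% and 2.84% for all 14257 genes; right, the median log2 difference of the list, with a dotted line at -0.06 for all genes. Inhibitory interneuron markers (-0.44), mitochondrial ribosomal proteins (-0.35) and respiratory chain subunits (-0.34) have the lowest medians, and oligodendrocyte and myelin markers (0.34) the highest.

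Calls also differed with the length of the gene. RefSeq spans were known for 14161 of the 14257 genes. With the genes split by span into 4 groups of equal size, in the shortest (up to 9.58 kb) 1.5% were called higher and 4.38% lower, and in the longest (from 57.8 kb) 3.53% were called higher and 1.27% lower. The median difference was -0.10 in the shortest group and -0.01 in the longest, and -0.07 and -0.04 without mouse 6. In SOD1 mice it was -0.035 in the shortest and -0.1255 in the longest. Calls by span were not counted without mouse 6. The median span was 36.3 kb for genes called higher, 14.2 kb for genes called lower and 23.5 kb for all. Brighter genes were called more often in both directions. In 4 such groups by level, 5.67% were called higher and 4.83% lower in the brightest, against 0.337% and 0.645% in the dimmest.

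The same interval in SOD1 mice shared no array with the WT comparison but had the same 2 cohorts. There 2724 transcripts were called higher (8.69%) and 5287 lower (16.9%). The SOD1 split depended on scaling: rises were 34% of its calls with the values as deposited, 43.9% after quantile normalization and 61.8% after setting the 75th centile of the arrays equal. In WT mice the shares were 59.3%, 60.1% and 54.6%. Of the 1033 WT rises 522 were also called higher in SOD1 mice (50.5%) and 7 lower, and of the 710 WT falls 488 were also called lower (68.7%) and 3 higher. Seen from the SOD1 side, 19.2% of its rises and 9.23% of its falls were called the same way in WT mice. Of the 15 largest WT rises 13 were called higher in SOD1 mice, with Nedd4 at 3.24 ± 0.35 and Norad at 3.57 ± 0.58 (SE), and of the 15 largest falls 11 were called lower. Across all transcripts the differences in the 2 genotypes correlated with r = 0.50, a description in which transcripts share arrays, cohorts and the 18S step.

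The energy metabolism groups that were lower in WT mice at week 15 were lower in SOD1 mice also. Of the mitochondrial ribosomal proteins 42 of 69 were called lower there (median -0.71), of respiratory chain subunits 26 of 54 (-0.52) and of glycolysis and cycle enzymes 22 of 30 (-0.83), against 21.7% of all genes called lower (5.94% higher) and a median of -0.10, with the values as deposited. Of the inhibitory interneuron markers 3 of 9 were called lower and 1 higher in SOD1 mice, with a median of -0.03, and Gad1, Slc6a5 and Pvalb fell by 1.86, 1.03 and 1.21. Glra1 rose by 1.26 and Slc5a7 by 1.53. All 5 genes were called in both genotypes.

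The difference between the genotypes was tested directly and was called for 919 of 31352 transcripts (2.93%), and for 11 of the 137 named probe sets. The named probe sets were picked by their WT difference, which is part of this test. Their share is therefore not comparable with that of all transcripts. Among the groups compared, a pump is given only for the SOD1 mice at week 15, so pump and genotype cannot be told apart here. The count over all transcripts was 328 after quantile normalization, 1848 with the 75th centile set equal and 6 with the 18S covariate. Ctss fell in WT mice alone, with 0.08 ± 0.34 in SOD1 mice and a difference of 1.86 ± 0.50 (adjusted p = 0.0655). In SOD1 mice its values ran from 6.79 to 8.73 (median 7.94) at week 11 and from 7.11 to 8.79 (median 7.65) at week 15. Egfl6 (1.71, adjusted p = 0.0734), Cartpt (1.69, 0.0899) and Galns (1.05, 0.0629) differed in the same way. Mobp, Kif5b, Sema6a, Slc7a5, Hsp90aa1 and Dnajb1 rose in WT mice and lay between -0.50 and -0.04 in SOD1 mice, where none was called. Without mouse 6 these WT rises were 0.63, 0.80, 0.92, 0.81, 0.82 and 0.45, the last not called. The difference between the genotypes was not tested without mouse 6. Uchl1 fell in both genotypes, by 0.68 in WT and by 2.06 in SOD1 mice (difference -1.38 ± 0.30, adjusted p = 0.0348).

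**Figure D5:**
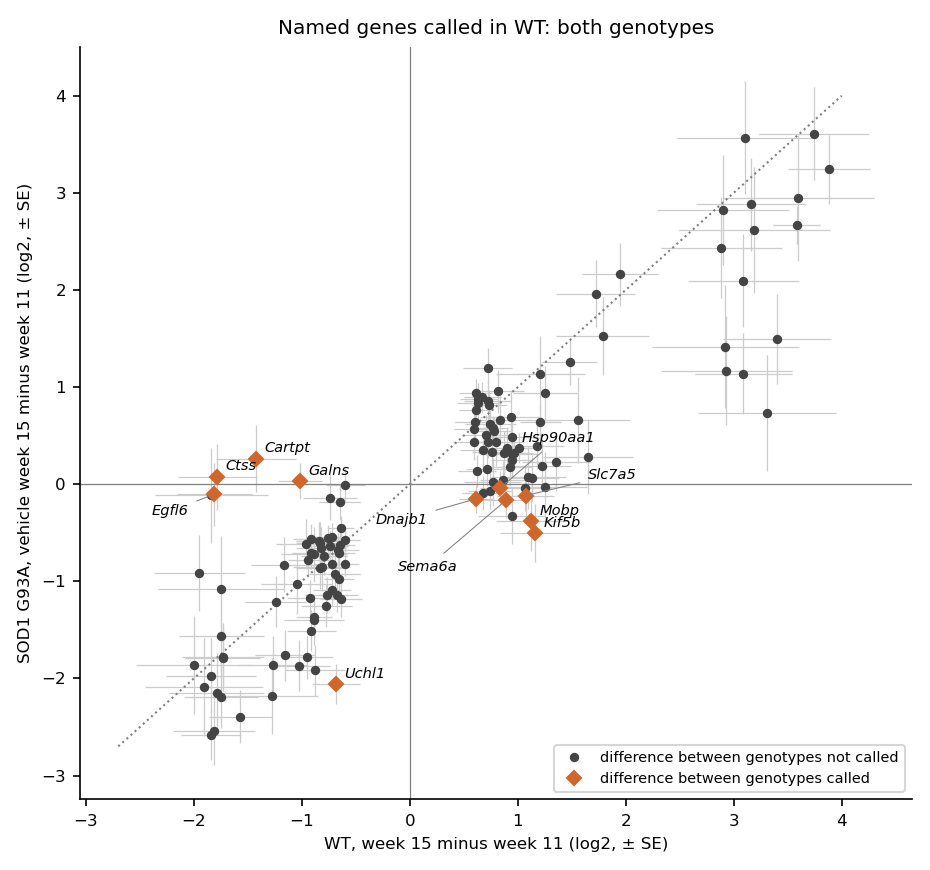
Log2 difference between week 15 and week 11 in WT mice (x axis) and in SOD1 G93A mice, vehicle at week 15 (y axis), for the 137 named probe sets called in WT mice, with standard errors; the dotted line marks equal differences. Diamonds are the 11 genes whose difference between genotypes was called, and the genes with the largest WT rises lie at positive values in both genotypes.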

How the data were processed

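Expression was measured on Affymetrix mouse genome arrays, 1 per mouse, from RNA of laser-dissected lumbar motoneurons amplified in repeated rounds. The authors summarised the probe sets with GCRMA, and the deposited values are on the log2 scale. No counts exist for arrays, so the number of arrays limits the precision. Probe sets were named through the platform annotation, updated by gene number to RefSeq (GRCm38.p6). Of 45101 probe sets 34958 named 1 gene, 932 several and 9211 none, and 34754 of the 34958 were matched to RefSeq. A probe set was kept if it exceeded the 20th centile of values (2.40) on at least 4 arrays and its SD reached the 30th centile, after the study's methods. This left 31352, of which 25589 named 1 gene.

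Groups came from the labels, with each array a separate mouse. limma 3.58.1 (R 4.3.3) was fitted over the 5 groups (35 arrays) with Benjamini-Hochberg adjustment over all 31352. The methods' ANOVA with Tukey comparison was an alternative. Control probe sets were compared by an exact permutation test. The named genes were the 15 with the largest called rise, the 15 with the largest called fall, and the called members of each list at the brightest filtered probe set of the gene (the 6 with the largest change where a list had more, which left out 5 ribosomal protein genes). The members and lists were chosen with earlier results of these data known. Scripts were tested on simulated data. Other alternatives were the filter, scaling, array weights, covariates, thresholds, a replicate block and leaving out each mouse. Other contrasts of the series were not used here.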

Additional observations from a re-analysis of the deposited data

Results flagged for a closer look

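In 6 of 70 groups tested 1 mouse lay far from the rest of its group. Chance gives about 1 in 20 for a single group, but these groups share mice, so the count of 6 cannot be read against it. Week 11 mouse 6 was that mouse in 3. Iars was at 4.69 in it against 6.92 to 7.46 in the other week 11 mice, Ciao2a at 6.47 against 5.28 to 5.55, and the BioB control (mean of 3) at 9.45 against 6.40 to 7.12. Prss23 was at 4.12 in week 11 mouse 2 against 4.95 to 5.42. Among week 15 mice, Vip was at 3.37 in mouse 6 against 2.15 to 2.61, and Chek1 at 5.98 in mouse 2 against 2.32 to 3.78.

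The week effect differed between genotypes, by limma's test of the difference, for 11 named genes (difference as SOD1 minus WT). Egfl6 (1.71), Ctss (1.86), Cartpt (1.69) and Galns (1.05) fell in WT mice and were not called in SOD1 mice. Mobp (-1.50), Kif5b (-1.66), Sema6a (-1.06), Hsp90aa1 (-0.88), Dnajb1 (-0.76) and Slc7a5 (-1.19) rose in WT mice and were not called in SOD1 mice. Uchl1 (-1.38) fell in both, more in SOD1 mice. Adjusted p-values of the 11 ran from 0.0348 (Uchl1) to 0.0925 (Slc7a5). This test was not repeated without week 11 mouse 6. A pump is given only for the older SOD1 mice, so pump and genotype cannot be told apart in this test.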

How the results depend on the processing

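The 1743 calls between the WT ages became 3827 (1788 higher, 2039 lower) with array weights, 387 (169 and 218) with the 18S covariate, 853 (605 and 248) at a fold of at least 2 and 1161 (738 and 423) at an adjusted p below 0.05, and ran from 1343 (without week 15 mouse 2) to 2100 (without week 11 mouse 6) when 1 mouse was left out. The share of rises was 59.3%, but 46.7% with array weights, 43.7% with the 18S covariate, 70.9% at a fold of at least 2 and 49.2% without week 11 mouse 6. The other settings stayed within 1.5 times the count, from 1541 without a filter to 2526 on the 13 WT arrays alone, with 1579 by ANOVA and Tukey comparison. The replicate numbers did not pair the mice (correlations of same-numbered mice from -0.112 to -0.003), and the replicate block gave 1789 calls. The 8011 SOD1 calls became 5338 by ANOVA and Tukey comparison and 3932 at a fold of at least 2. The 919 calls of the difference between genotypes became 328 after quantile normalization, 1848 with the 75th centile equal, 6 with the 18S covariate, 279 with the Gapdh 3′ minus 5′ covariate and 139 at an adjusted p below 0.05. The 18S difference of 2.51 ran from 2.36 to 2.67 when 1 mouse was left out. Of the 137 named probe sets 15 kept their call with the 18S covariate, 123 after quantile normalization, 130 with the 75th centile equal and 120 without week 11 mouse 6. With the 18S covariate the sign turned for Snhg1 (0.0587), Cacna2d2 (-0.015), Syt4 (-0.46), Syt11 (-0.26), Kif5b (-0.16), Dynll2 (-0.36), Spock1 (-0.002), Efna5 (-0.29), Bag1 (0.12), Hsp90b1 (-0.18), Pdia4 (-0.26), Srsf3 (0.21), Sars (-0.76) and Smarca4 (-0.0237). The cause of these changes was not tested. Age, cohort and 18S level cannot be told apart in these mice.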
